A study of Mus musculus with 4 samples.

Results

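The T cell class of mouse lung singlets comprised 334 of 6084 barcodes in 1 single-cell RNA library, or 5.49% (95% interval 4.93 to 6.09, exact Clopper-Pearson). Its members were the barcodes that the authors' annotation called T cells and flagged as passing quality control, and the deposited counts held all 334. The series has 19763 counted barcodes in 4 libraries, with singlets and multiplets (clusters of attached cells) from small intestine and from whole lung of C57BL/6J mice, an inbred strain. The lung singlets came from whole lung taken apart mechanically and with enzymes. The labels give no treatment, age or sex and name no separate animals. NK cells (172 barcodes), B cells (190) and 8 further classes with at least 50 barcodes came from the same library and served for comparison. Mesothelial cells (10) and type I pneumocytes (6) were too few.

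T cells recognise antigen through a receptor whose variable chains, alpha with beta or gamma with delta, sit in the membrane with the CD3 proteins, which carry the signal inward. CD4 and CD8 are coreceptors that divide most alpha-beta T cells into helper and cytotoxic lineages. The lung holds naive T cells passing through its blood vessels as well as cells that stay in the tissue, among them gamma-delta T cells that make interleukin 17. NK cells and innate lymphoid cells share much of the T cell programme but lack the rearranged receptor and surface CD3.

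The genes of the 3 CD3 chains, defining markers of T cells, lie together on chromosome 9 within 40056 bases of mouse build GRCm38 (mm10). Per the GENCODE annotation, Cd3g spans chr9:44969572-44980431 on the minus strand, Cd3d chr9:44981786-44987339 on the plus strand and Cd3e chr9:44998740-45009627 on the minus strand. Cd3g and Cd3d point away from each other from starts 1355 bases apart. Their promoters are shown because all 3 genes were at their highest in T cells. Each line gives the 250 bases before the start in RefSeq (GRCm38.p6), 5′ to 3′ on the gene's own strand, with motif matches in capitals.
Cd3g, chr9:44980432-44980681, minus strand: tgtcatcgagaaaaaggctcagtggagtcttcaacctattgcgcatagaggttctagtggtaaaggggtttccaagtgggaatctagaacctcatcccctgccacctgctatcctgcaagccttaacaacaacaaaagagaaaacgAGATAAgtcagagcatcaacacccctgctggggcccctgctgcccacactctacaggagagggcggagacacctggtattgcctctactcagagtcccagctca
Cd3d, chr9:44981536-44981785, plus strand: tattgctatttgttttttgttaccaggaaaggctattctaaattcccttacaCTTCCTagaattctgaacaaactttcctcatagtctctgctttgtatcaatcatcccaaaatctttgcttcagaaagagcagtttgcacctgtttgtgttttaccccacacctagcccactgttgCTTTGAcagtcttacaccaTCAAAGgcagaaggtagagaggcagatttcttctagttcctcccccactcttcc
Cd3e, chr9:45009612-45009861, minus strand: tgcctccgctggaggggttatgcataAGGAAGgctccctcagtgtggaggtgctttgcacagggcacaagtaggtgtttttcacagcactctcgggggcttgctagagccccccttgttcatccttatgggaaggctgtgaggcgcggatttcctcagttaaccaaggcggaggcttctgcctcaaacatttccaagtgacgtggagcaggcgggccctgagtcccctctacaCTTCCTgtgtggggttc
The motifs searched on both strands were TGTGGT, bound by RUNX factors, CTTTGA, bound by TCF and LEF factors, AGATAA, bound by GATA factors, and AGGAAG, bound by ETS factors. None of the matches overlapped another. Cd3g held 1 GATA match, Cd3d 2 TCF/LEF matches and 1 ETS match, and Cd3e 2 ETS matches. Of 32817 promoter windows of the same length, 14.0% held the RUNX letters, 13.8% the TCF/LEF letters, 9.99% the GATA letters and 29.5% the ETS letters. A match describes these letters and is no evidence of binding.

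T cell barcodes were of moderate depth, with a median of 5039.5 unique molecular identifiers (UMIs, counted RNA molecules; 3018 to 21871) and 1775.5 genes. NK cells had a median of 3459 UMIs and B cells 3312.5. Ribosomal protein genes made up a median of 36.0% of UMIs in T cells, against 15.3% in NK cells and 27.4% in B cells. Mitochondrial genes made up 3.96% in T cells, against 2.24% in NK cells and 4.57% in B cells. No T cell barcode was shared with another library. All groups come from a single library, so nothing could be tested across replicates. Differences are called by size alone, at 2-fold or more, on CPM (UMIs of a gene relative to all UMIs of its class, scaled alike for every class), and intervals cover counting error only and not variation between animals.

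The markers backed the label for most barcodes but not for all. Cd3e had 704 UMIs in 75.1% of T cells (371.9 CPM), and the next highest class, macrophages, had 8.003 CPM. Cd3d had 693.6 CPM in T cells and Cd3g 874.2 CPM, and macrophages were again next, at 20.96 and 24.4 CPM. Trbc2, a constant segment of the beta chain, had 995.2 CPM in T cells, against 177.4 CPM in NK cells and 12.4 CPM in B cells. In fibroblast-1 cells, which should lack the gene, Cd3e had a UMI in 0.101% of barcodes at a median depth of 6562 UMIs. Of the 334 T cell barcodes, 230 had a UMI of all 4 markers and 295 (88.3%) had at least 3 UMIs of the CD3 genes. Elsewhere, at least 3 CD3 UMIs were counted in 11 of 283 macrophages (3.89%), 4 of 227 alveolar macrophages, 4 of 1009 type II pneumocytes, 3 of 528 fibroblast-2 cells, 3 of 181 ciliated cells, 2 of 190 B cells, 1 of 172 NK cells and 1 of 119 endothelial cells. None of 2964 fibroblast-1 cells reached 3 (exact upper bound 0.124%). At the other end, 29 T cell barcodes had no CD3 UMI at all and 6 lacked Trbc2 as well. These 29 are described separately further on.

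Markers of other cells were present at levels that differed in kind. The surfactant gene Sftpc was counted in 99.7% of T cells at 1427 CPM, but also in 99.9% of fibroblast-1 cells, against 221097 CPM in type II pneumocytes. The 5 fibroblast markers had 1279 UMIs in the T cell class, and 20 barcodes held 93.8% of them. Those 20 had a median of 10170.5 UMIs, against 4962.5 in the other 314, and Scrublet, which scores barcodes against simulated doublets, marked 17 of the 20 and none of the 314. Of the B cell markers, Cd79a and Ms4a1 had no UMI in the T cell class, while Ighm, the heavy chain of immunoglobulin M, had 117.8 CPM in 41.9% of T cells, 61.5 CPM in NK cells, 195.9 CPM in macrophages and 1.90 CPM in fibroblast-1 cells. The part of free RNA and of doublets in the results was not tested, and the counts of genes were repeated without the 20 barcodes and, apart from CD8-only against CD4-only, where none of the 29 falls, and the comparison of the 29 themselves, without the 29.

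**Figure D1:**
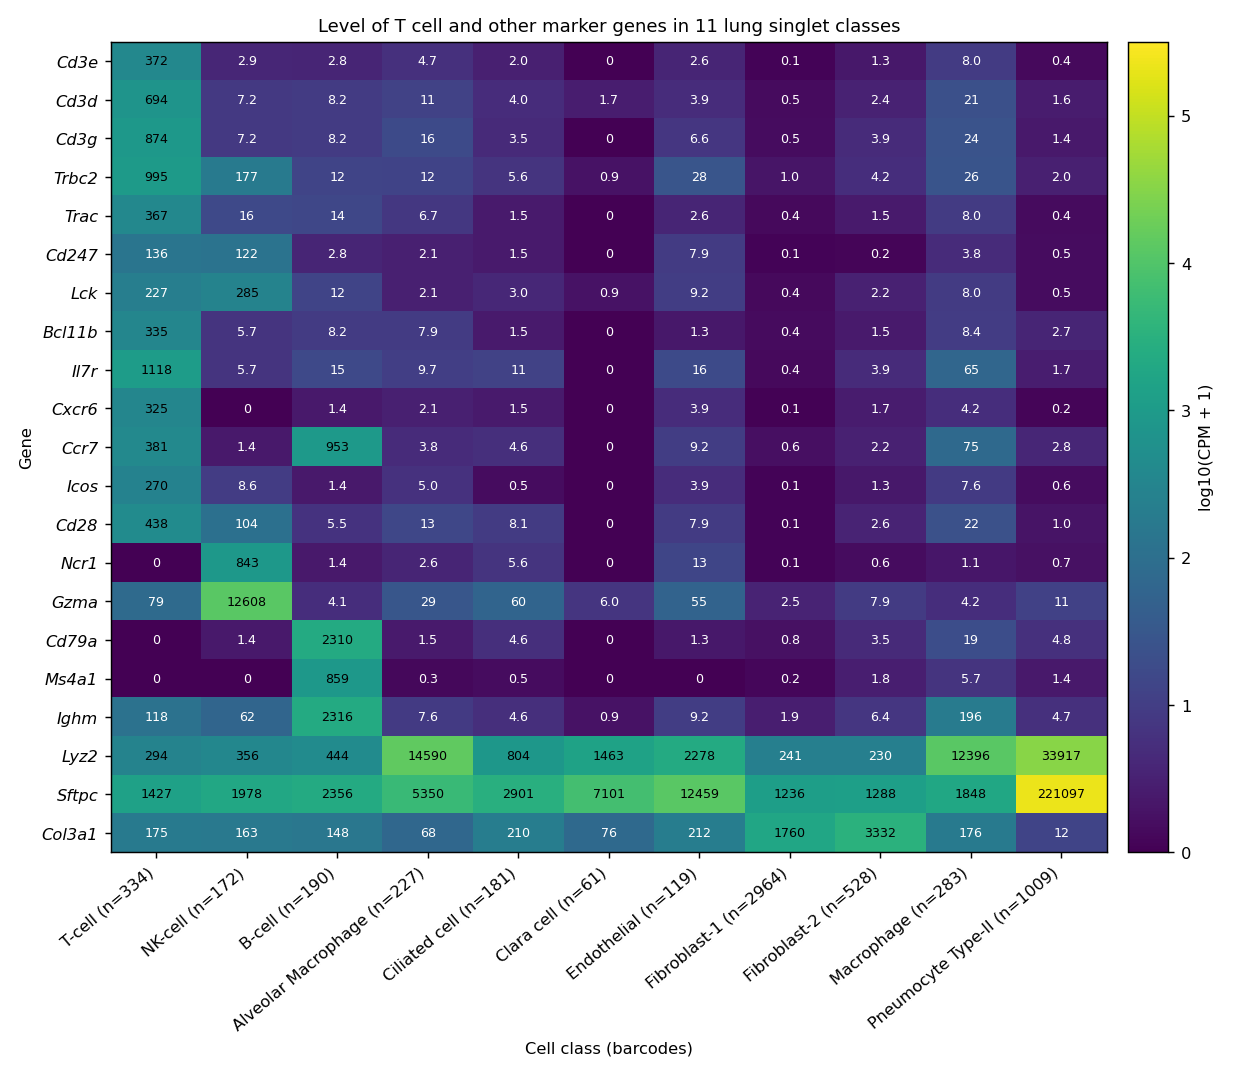
Level of 21 genes (rows) in 11 lung singlet classes (columns, T cells leftmost) in CPM, printed in each cell and coloured as log10(CPM + 1). The CD3 genes stand out in the T cell column, at 371.9 to 874.2 CPM, while Cd247 and Lck are near the same level in NK cells and Sftpc is present in every column.

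The set of genes highest in T cells was small. Of 4721 genes with at least 50 UMIs in T cells, 75 (1.59%) had a T cell level at least 2 times that of the next highest class. They included 6 of the 7 genes of the receptor complex and 9 of 12 coreceptor and costimulation genes, with medians of 23.3 and 11.5 times the next class, against 0.598 for all genes counted. The highest ratio was that of Il17a, the cytokine interleukin 17A, with 258 UMIs in T cells and 1 UMI in fibroblast-1 cells, a ratio of 2940 whose interval of 523 to 116575 reflects that single UMI. The remaining classes had no UMI and were not set to 3 counts in that ratio. Among barcodes with at least 3000 UMIs no other class had a UMI. The ratio was then a bound of at least 25.2, with the next class set at 3 counts. Only 20 of the 334 T cell barcodes had a UMI of Il17a. Cd40lg, the ligand by which helper T cells act on B cells, followed with 119.9 CPM in T cells and 1.38 CPM in B cells. Cxcr6, a chemokine receptor of tissue lymphocytes encoded at chr9:123806475-123811760, had 325.4 CPM in T cells and 4.19 CPM in macrophages, 77.6 times less. Bcl11b, a transcription factor needed for T cell identity, had 335.4 CPM in T cells and 8.38 CPM in macrophages. Il7r, the receptor chain for the survival cytokine interleukin 7, was counted in 91.6% of T cells at 1118 CPM, 17.2 times the level in macrophages (14.7 to 20.2). The inducible costimulator Icos, the surface molecules Cd5 and Cd6, the actin-binding protein gene Actn2, the neuronal vesicle gene Nsg2, Trac (alpha chain) and Tcrg-C1 (gamma chain) completed the 15 highest together with the CD3 genes, at 15.9 to 56.1 times the next class, and without Scrublet doublets the ratio of Tcrg-C1 was 162.9 in place of 25.3. Cd163l1, a scavenger receptor gene known from gamma-delta cells, had 107 UMIs in T cells, in few barcodes, and none in the other 10 classes. Of the 11 counted genes of the tissue-resident and effector list, 1 was past 2-fold, against 1.59% of all genes counted.

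NK cells are the class nearest to T cells in lineage. Receptor complex genes had a median T to NK ratio of 23.3, against 1.36 for the signalling genes behind the receptor. Of 4822 genes with at least 50 UMIs in either class, 357 (7.40%) were at least 2 times higher in T cells and 361 (7.49%) at most 0.5 times as high, with a median ratio of 0.897. TMM scaling, which assumes that most genes are level, raised every ratio by 0.23 on the log2 scale and gave 505 higher and 245 lower. Of 79 ribosomal protein genes 77 had a ratio above 1, with a median of 1.90, and 24 were among the 357.

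Receptor genes were higher in T cells in 6 of 7 cases. Cd3e had 371.9 CPM in T cells and 2.86 CPM in NK cells, a ratio of 129.9 (35.8 to 1075). Trac, the alpha chain, had a ratio of 23.3 (12.9 to 46.9). The beta chain segments differed less, with a ratio of 5.61 for Trbc2 (4.68 to 6.78) and 2.47 for Trbc1 (2.10 to 2.91), and a UMI of Trbc1 was counted in 58.7% of T cells, 55.2% of NK cells and 1.05% of B cells. Trbc1 and Trbc2 are near-identical, so their split is uncertain. The exception was Cd247, the zeta chain used by both cell types, with 135.8 CPM in T cells and 121.6 CPM in NK cells.

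Signalling genes behind the receptor were mixed, with 6 of 17 higher and 4 lower. Lck, the kinase that starts receptor signalling, had 227.1 CPM in T cells and 284.7 CPM in NK cells, within 2-fold. Zap70, the kinase recruited next, was also within 2-fold (ratio 1.10, 0.776 to 1.58). Lat, the adaptor that Zap70 phosphorylates, was 5.12 times higher in T cells (3.65 to 7.39). Themis, required for thymocyte selection, was 34.9 times higher (9.53 to 290.2). The kinases Txk and Fyn were lower in T cells, with ratios of 0.400 and 0.435.

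Of the naive and central memory genes, 7 of 10 were higher in T cells and 1 was lower. Il7r was 195.4 times higher in T cells (76.2 to 717.7) and Ccr7, the lymph node homing receptor, had 721 UMIs in T cells and 1 in NK cells. Cxcr6 had no UMI in NK cells and was at least 75.8-fold higher, and Cd8b1 at least 65.3-fold. Inpp4b, a lipid phosphatase, and Klk8, a serine protease, also had 1 UMI each in NK cells, against 298 and 236 in T cells. Of 18 lineage transcription factors, 8 were higher in T cells and 4 lower: Bcl11b was 58.6 times higher (22.8 to 215.8), Tcf7 7.44 times and Lef1 7.47 times, while Tbx21 and Eomes, which drive cytotoxic programmes, were at 0.0346 and 0.0399 of the NK level. All 10 counted genes of the cytotoxic list were lower in T cells, with a median ratio of 0.0727. Only 6 of the 10 reached 50 UMIs in T cells, so the others could not have been called higher. Gzma, a granule protease, had 78.7 CPM in T cells and 12608 CPM in NK cells. Ccl4 and Ccl3, inflammatory chemokines, had 10.04 and 6.34 CPM in T cells, against 3524 and 1879 CPM in NK cells. The NK receptors Ncr1, Klra8, Klra9 and Klri2 had no UMI in T cells, and Ncr1 had 589 UMIs in NK cells. Summed over the 7 NK markers, T cells had 49.7 CPM and NK cells 6157 CPM. Members of the Klra family are near-identical in sequence and their split is uncertain.

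Against B cells, the signalling genes joined the T cell side. Of 4869 genes counted, 528 (10.8%) were at least 2 times higher in T cells and 374 (7.68%) at most 0.5 times as high, with a median ratio of 1.03. All 7 receptor genes and 15 of 17 signalling genes were higher, with median ratios of 80.4 and 45.9. Zap70 had 131 UMIs in T cells and 1 in B cells. Lck had 227.1 CPM in T cells and 12.4 CPM in B cells, a ratio of 18.4 (9.58 to 40.4).

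Named by ratio, the T cell side was led by Cxcr6, Icos and the monocyte and lymphocyte chemokine receptor Ccr2, each with 1 UMI in B cells. Ccl5 followed with a ratio of 151.1 (69.3 to 412.2), with Fgl2, a fibrinogen-like immune regulator, the protease inhibitor Ctla2a, Gata3 and Klk8 between 90.7 and 107.6, each with 1 or 2 UMIs in B cells. Ratios that rest on so few UMIs are loose. Without Scrublet doublets Ccr2 and Klk8 had no UMI in B cells. Their ratios of 166.7 and 90.7 then became bounds of at least 53.9 and 28.9. On the other side all 8 B cell markers and all 7 class II antigen presentation genes were lower in T cells. Only 1 of the 8 and 1 of the 7 reached the UMI minimum in T cells, so the others could not have been called higher. Cd79a, which signals for the B cell receptor, had no UMI in T cells and 1680 in B cells, and Ebf1, the B cell lineage factor, had 1 UMI in T cells and 1285 in B cells. Cd74, the invariant chain, had 65.5 CPM in T cells and 11645 CPM in B cells. Recirculation genes did not separate the classes in 1 direction: Ccr7 was lower in T cells (380.9 against 952.9 CPM), and S1pr1, the receptor for leaving tissue, was within 2-fold (226.1 against 203.5 CPM).

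**Figure D2:**
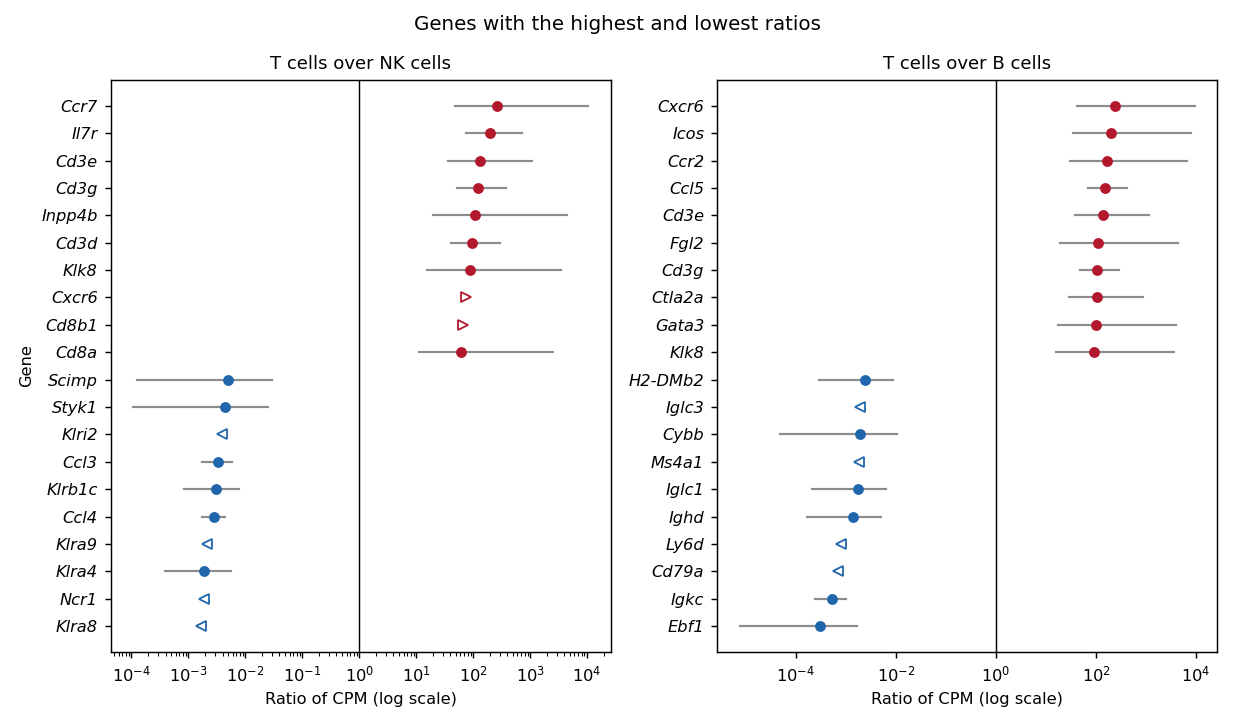
Ratio of T cell CPM to NK cell CPM (left) and to B cell CPM (right) on log axes for the 10 highest and 10 lowest genes of each comparison. Filled points are ratios with 95% counting intervals, and open triangles are bounds for genes with no UMI in 1 class, set at 3 counts, such as Cxcr6 on the left at 75.8.

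T cells were divided by coreceptor detection. CD8 (Cd8a or Cd8b1) without Cd4 was counted in 101 of 334 barcodes, or 30.2% (25.4 to 35.5), Cd4 without CD8 in 57, or 17.1% (13.2 to 21.5), both in 3 and neither in 173 (51.8%). The CD8-only barcodes had a median of 5678 UMIs and the CD4-only barcodes 4926. Cd4 was at most 9 UMIs in any barcode, so absence of a UMI does not show absence of the RNA, and after thinning each barcode to 2000 UMIs the CD4-only share was 11.1%.

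Cytotoxic genes were counted mostly in the CD8-only barcodes. Of 2660 genes with at least 30 UMIs in either division, 77 (2.89%) were at least 2 times higher in CD8-only and 57 (2.14%) at most 0.5 times as high as in CD4-only barcodes, with a median ratio of 0.989; these counts include the genes that defined the divisions. TMM scaling raised the ratios by 0.14 on the log2 scale and gave 108 and 42. Of 12 cytotoxic genes, 5 were counted and all 5 were higher in CD8-only barcodes. None of the 5 reached 30 UMIs in CD4-only barcodes, so none of them could have been called lower. Summed over all 12 genes, CD8-only barcodes had 1335.5 CPM and CD4-only barcodes 251.5 CPM. Nkg7, a granule membrane protein, had 548.5 CPM in CD8-only and 92.3 CPM in CD4-only barcodes, and was counted in 76 of 101 and 6 of 57. Klrd1, the CD94 receptor chain, was counted in 69 of 101 CD8-only and 4 of 57 CD4-only barcodes, a ratio of 14.4 (6.02 to 45.0). Ctsw, a cathepsin of cytotoxic cells, had a ratio of 11.4, and Itgae, the integrin that binds epithelial cadherin, 7.90 (2.01 to 68.1). Other genes with high ratios rested on few barcodes. Ccl5 had 2888 CPM in CD8-only and 63.7 CPM in CD4-only barcodes, and 10 barcodes of the whole class held 68.2% of its UMIs. Gzma had 143 UMIs in 8 CD8-only barcodes and 1 UMI in CD4-only barcodes, a ratio of 72.9. Without Scrublet doublets that 1 UMI was gone, and the ratio was a bound of at least 23.02. Gzmb and Lcn4, a lipocalin, had 34 and 37 UMIs in CD8-only barcodes and 1 each in CD4-only barcodes. Ly6c2 had a ratio of 75.5, a bound of at least 23.02 without doublets, and Ly6c1 one of 0.0987. The 2 genes are near-identical and their split is uncertain. Bend4 had no UMI in CD4-only barcodes and was at least 6.80-fold higher, and Fam241a had a ratio of 13.1. With coreceptors called at 2 UMIs, the ratio was 41.6 for Gzma and 39.6 for Klrd1. That of Fam241a was also over 1.5 times larger. Ly6c2, Lcn4, Gzmb and Bend4 had bounds there, of at least 14.4, 3.59, 3.30 and 3.79. Ctsw was at 6.12, which may be a bound too. A bound does not show that a ratio fell.

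Among the genes lowest in CD8-only barcodes, Cd40lg had 16.2 CPM in CD8-only and 257.8 CPM in CD4-only barcodes, and was counted in 6 of 101 and 38 of 57. With coreceptors called at 2 UMIs its ratio was 0.00550 in place of 0.0629. Cd40lg had only 10 UMIs in CD8-only barcodes called at 1 UMI, so the smaller ratio rests on few. Trat1, an adaptor of the receptor complex, had a ratio of 0.165 (0.0985 to 0.268), and the inhibitory receptor Ctla4 one of 0.230 (0.113 to 0.446). Tmem64, a membrane protein, was at 0.128, the stem cell antigen gene Ly6a at 0.243 and the tetraspanin Cd9 at 0.247. Il17a was lowest, at 0.00980, but its 52 UMIs in the CD4-only division came from 3 barcodes. With coreceptors called at 2 UMIs it fell below the 30-UMI minimum. Its ratio of 0.291 there rests on too few UMIs to give a direction. Spon1 and Itga8 had ratios of 0.243 and 0.275, and both are high in fibroblast-1 cells, at 751.3 and 930.9 CPM. Without the barcodes that held at least 5 fibroblast UMIs (6 CD8-only and 4 CD4-only) the ratio of Spon1 was 0.820, that of Itga8 0.492 and that of Ly6a 0.0908, and 31 genes in place of 57 were lower. Without Scrublet doublets Spon1 was at 0.966 and Itga8 at 0.676, so neither passed 2-fold. Of the naive and central memory genes 0 of 10 passed 2-fold, which is near the low share of all genes that did, with Ccr7 at 631.2 CPM in CD8-only and 487.0 CPM in CD4-only barcodes and Lef1 at 548.5 and 541.1 CPM.

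**Figure D3:**
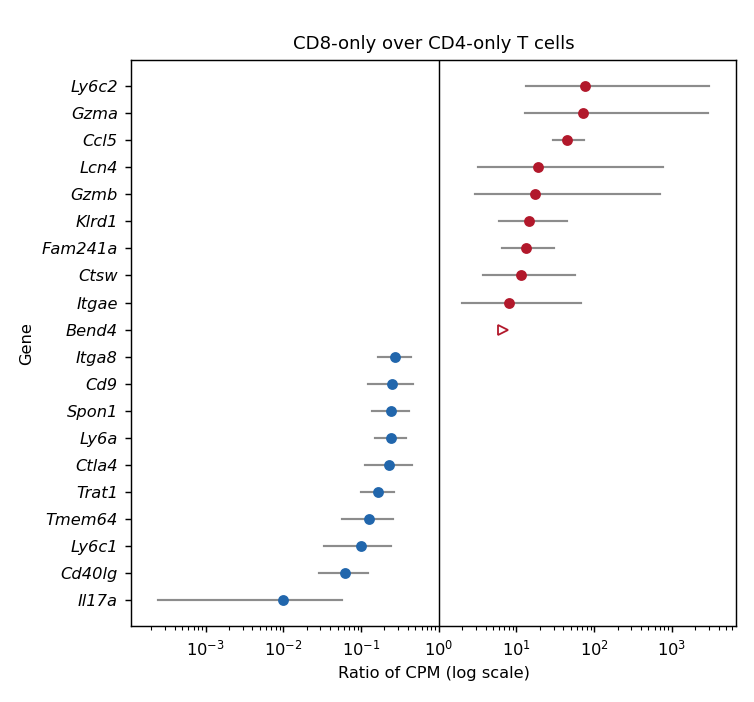
Ratio of CPM in the 101 CD8-only to the 57 CD4-only T cell barcodes on a log axis, for the 10 highest and 10 lowest genes apart from Cd4, Cd8a and Cd8b1. Points are ratios with 95% counting intervals and the open triangle (Bend4) is a bound of 6.80, with Itga8 and Spon1 among the lowest at 0.275 and 0.243.

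The 29 barcodes without a CD3 UMI, 8.68% of the class (5.89 to 12.2), went against the T cell label. They were not shallow, with a median of 4749 UMIs, against 5079 in the other 305. None had a UMI of Cd247 (0 of 29, exact upper bound 11.9%), against 153 of the other 305. Trac was counted in 1 of 29, against 219 of 305. In 28 of 29 a UMI of Trbc1 or Trbc2 was counted, so the beta segments, which NK cells also had, were the receptor transcripts that most of them carried. None of the 29 had a UMI of Cd4, Cd8a, Cd8b1, Cd5, Cd6, Cd2 or Ccr7.

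Instead they carried genes of type 2 innate lymphoid cells, which respond to epithelial alarm signals and lack an antigen receptor, although T cells can express several of these genes too. Il1rl1, the receptor for interleukin 33 at chr1:40429570-40465415, was counted in 27 of 29 barcodes without CD3 and in 11 of the other 305, at 827.1 and 15.4 CPM. Gata3, the factor of type 2 lymphocytes, was counted in 27 of 29, against 87 of 305. Barcodes with at most 1 CD3 UMI numbered 34, of which 31 had Il1rl1 and 31 Gata3. Those with at most 2 numbered 39, of which 34 had Il1rl1 and 35 Gata3, so the pattern did not stop at 0 CD3 UMIs. Over the 7 genes of the type 2 innate lymphoid list, UMIs per barcode had a lowest of 5, a median of 12 and a highest of 40 without CD3, against 0, 4 and 29 in gamma-delta barcodes with CD3 and 0, 0 and 15 in the remaining 258. The groups overlapped, but no barcode without CD3 was at 0, while 148 of the 258 were. Of 6033 genes counted, 574 (9.51%) were at least 2 times higher without CD3 and 734 (12.2%) at most 0.5 times as high, with a median ratio of 1.07, the 3 CD3 genes included. All 5 counted genes of the list were higher and none lower, with a median ratio of 9.20.

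Other genes led the same comparison. Ccdc184, a coiled-coil protein gene, had 36 UMIs without CD3 and 2 in the rest, and Nrgn, which encodes a calmodulin-binding protein, 69 and 7. Arg1, the arginine-degrading enzyme known from innate lymphoid cells, was 19.5 times higher (11.9 to 32.5) and counted in 18 of 29 barcodes. Calca, which encodes a neuropeptide that acts on these cells, had a ratio of 32.0 (16.0 to 68.4), with 31 UMIs in 7 barcodes, and was 93.9 times higher without the barcodes with fibroblast UMIs. Areg, a growth factor for epithelium, had 360.5 CPM without CD3 and 18.8 CPM in the rest, but 6 of the 29 barcodes held all its 51 UMIs, and the 77 UMIs of the chemokine Cxcl2 also lay in 6. Stab2, Lpcat2 and Ptpn13 were 11.04 to 26.8 times higher. At the low end stood Ms4a4b, Lef1, Ifi27l2a, S1pr1, Klf2, Trac, Trdc, Rnf138 and Ccl5, with ratios of 0.00698 to 0.0474, and Ms4a6b, which had no UMI without CD3 and 899 in the rest. Shared with the rest of the class were Il7r (1470.3 and 1089.8 CPM), Icos, Thy1 and Cxcr6, all within 2-fold. The immediate early genes, which respond to tissue dissociation, summed to 11636 CPM without CD3 and 5821 CPM in the rest, with 5 of 12 higher, and their part in the result was not tested. Markers of mast cells and basophils summed to 56.6 CPM without CD3 and 1.14 CPM in the rest, but none of the 3 genes reached 30 UMIs in either division.

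**Figure D4:**
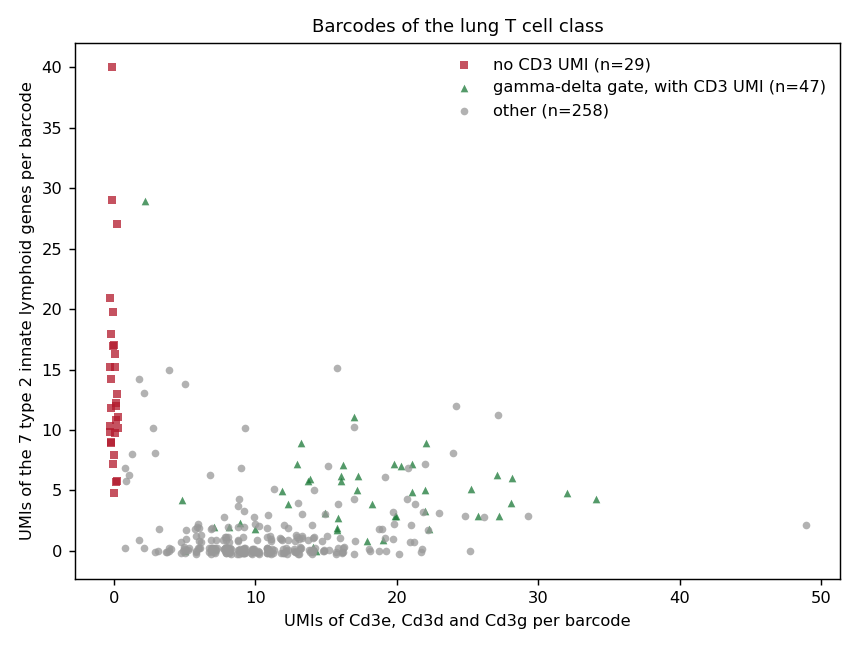
Each point is 1 barcode of the T cell class, with UMIs of Cd3e, Cd3d and Cd3g on the horizontal axis and UMIs of the 7 type 2 innate lymphoid genes on the vertical axis, spread slightly at random for visibility. The 29 barcodes without CD3 (squares) stand at 5 to 40 UMIs on the vertical axis, while the median of the 258 grey points is 0.

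Gamma-delta receptor transcripts marked a further group. At least 2 UMIs of Trdc, Tcrg-C1, Tcrg-C2 or Tcrg-C4, the constant segments of the delta and gamma chains, were counted in 54 T cell barcodes, or 16.2% (12.4 to 20.6), against 2 NK cells and 0 B cells. At limits of 1, 3 and 4 UMIs the number was 83, 44 and 36, and at 1 UMI 36 NK cells passed too. Of the 54, 7 had no CD3 UMI and none of these 7 had a UMI of Trdc. Tcrg-C4 was counted in 13 of the 29 barcodes without CD3, so the gate does not hold gamma-delta cells only. Tcrg-C1 and Tcrg-C2 are near-identical and their split is uncertain.

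Il17a and Cd163l1 were among the genes highest in this group. Of 5657 genes counted, 354 (6.26%) were at least 2 times higher in the gamma-delta barcodes and 391 (6.91%) at most 0.5 times as high as in the other 280, with a median ratio of 1.12, the genes of the gate included. Cd163l1 was counted in 15 of 54 gamma-delta barcodes and in 2 of the other 280, at 319.6 and 1.28 CPM. Il17a was counted in 14 of 54 and 6 of 280, a ratio of 10.2 (7.82 to 13.5). The interleukin 23 receptor Il23r was counted in 15 of 54 and 9 of 280. The interleukin 1 receptor Il1r1 was 9.53 times higher, Blk, a Src-family kinase, 12.2 times and the potassium channel gene Kcnk1 19.4 times. Cryba4, Krt83, Osbpl3 and Acsbg1 were 6.71 to 41.7 times higher. Maf, a transcription factor of interleukin 17 cells, had 523.6 CPM in gamma-delta barcodes and was 4.27 times higher (3.45 to 5.27), and the neuropeptide receptor component Ramp1 was 3.79 times higher.

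Circulation genes were low in the same barcodes. Lef1 had a ratio of 0.0644 (0.0308 to 0.119), Ccr7 of 0.150 (0.0933 to 0.229) and the adhesion receptor Slamf6 of 0.0889, and 8 of 10 naive and central memory genes were lower. Cd4 had 1 UMI and Gzma none in the gamma-delta barcodes. Gpr18, Tdrp, Tent5c, Rflnb, BE692007 and Dpep1 had ratios of 0.0567 to 0.112, and the ratio of Dpep1 was 0.569 without the barcodes with fibroblast UMIs. CD3 itself was not low, with Cd3g at 1388 CPM and 1.81 times the level of the other T cells. Trac was counted in 22 of 54 gamma-delta barcodes, against 198 of 280, so the gate does not separate the 2 receptor types cleanly. Leaving out the barcodes without CD3 kept 47 barcodes, of which 14 had Il17a and 15 Cd163l1.

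Across the whole class, Cxcr6 and Ccr7 were detected mostly in different barcodes. Cxcr6 was counted in 13 of the 175 barcodes with Ccr7 (7.43%, 4.02 to 12.4) and in 108 of the 159 without it (67.9%, 60.1 to 75.1). That gave 108 barcodes with Cxcr6 only, 162 with Ccr7 only, 13 with both and 51 with neither, and the first 2 sets had medians of 5025.5 and 5061 UMIs. The Cxcr6-only set held 47 of the 54 gamma-delta barcodes and 22 of the 29 without CD3, against 4 and 0 in the Ccr7-only set. CD8-only barcodes numbered 8 in the Cxcr6-only set and 70 in the Ccr7-only set, and CD4-only barcodes 6 and 40.

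The division ran through many genes, with 645 of 4067 (15.9%) at least 2 times higher and 280 (6.88%) at most 0.5 times as high in Cxcr6-only barcodes, and a median ratio of 1.22. Of the effector and resident memory genes, 8 of 10 were higher and 1 was lower, a count that includes Cxcr6, which set the division. S100a4, a calcium-binding protein of effector lymphocytes, had 2991 CPM in 102 of 108 Cxcr6-only barcodes and 28.2 CPM in 7 of 162 Ccr7-only barcodes, a ratio of 106.1 that was 317.8 without Scrublet doublets. Ccr2 had 388 UMIs in the Cxcr6-only set and none in the Ccr7-only set, and was at least 193.9-fold higher. Fgl2 (253 and 2 UMIs) and the activating receptor Klrk1 (125 and 1) followed the same pattern. Pxdc1 and the leukotriene receptor Ltb4r1 had no UMI in the Ccr7-only set and were at least 105.9-fold and 81.4-fold higher. Il17a, Cd163l1 and Tcrg-C1 were also among the 10 highest. The protease inhibitor Serpinb1a had 184 and 3 UMIs, the adhesion receptor Cd44 was 13.5 times higher and Rora, a transcription factor, 11.8 times (8.30 to 17.3).

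Genes of the naive and central memory list were lower in 9 of 10 cases, a count that includes Ccr7, which also set the division. Lef1 had 22.7 CPM in Cxcr6-only and 650.2 CPM in Ccr7-only barcodes, and was counted in 13 of 108 and 154 of 162. Dapl1, expressed in naive T cells, had 7 UMIs in Cxcr6-only and 341 in Ccr7-only barcodes. Klf2, which maintains the homing programme, had 349.3 CPM in Cxcr6-only and 1927 CPM in Ccr7-only barcodes, and S1pr1 61.7 and 340.3 CPM. The exception was Il7r, at 1473 and 972.1 CPM. St8sia6, BE692007, Rflnb, Fam169b, Slamf6, Rras2 and Cd8a had ratios of 0.0319 to 0.0775, of which that of Rflnb was 0.0189 without Scrublet doublets. The CD3 genes were within 2-fold, with Cd3e at 435.4 CPM in Cxcr6-only and 324.0 CPM in Ccr7-only barcodes. Ribosomal protein genes made up a median of 24.2% of UMIs in Cxcr6-only and 40.7% in Ccr7-only barcodes, and their part in these ratios was not tested. Without the barcodes lacking CD3, 559 genes were higher and 255 lower.

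**Figure D5:**
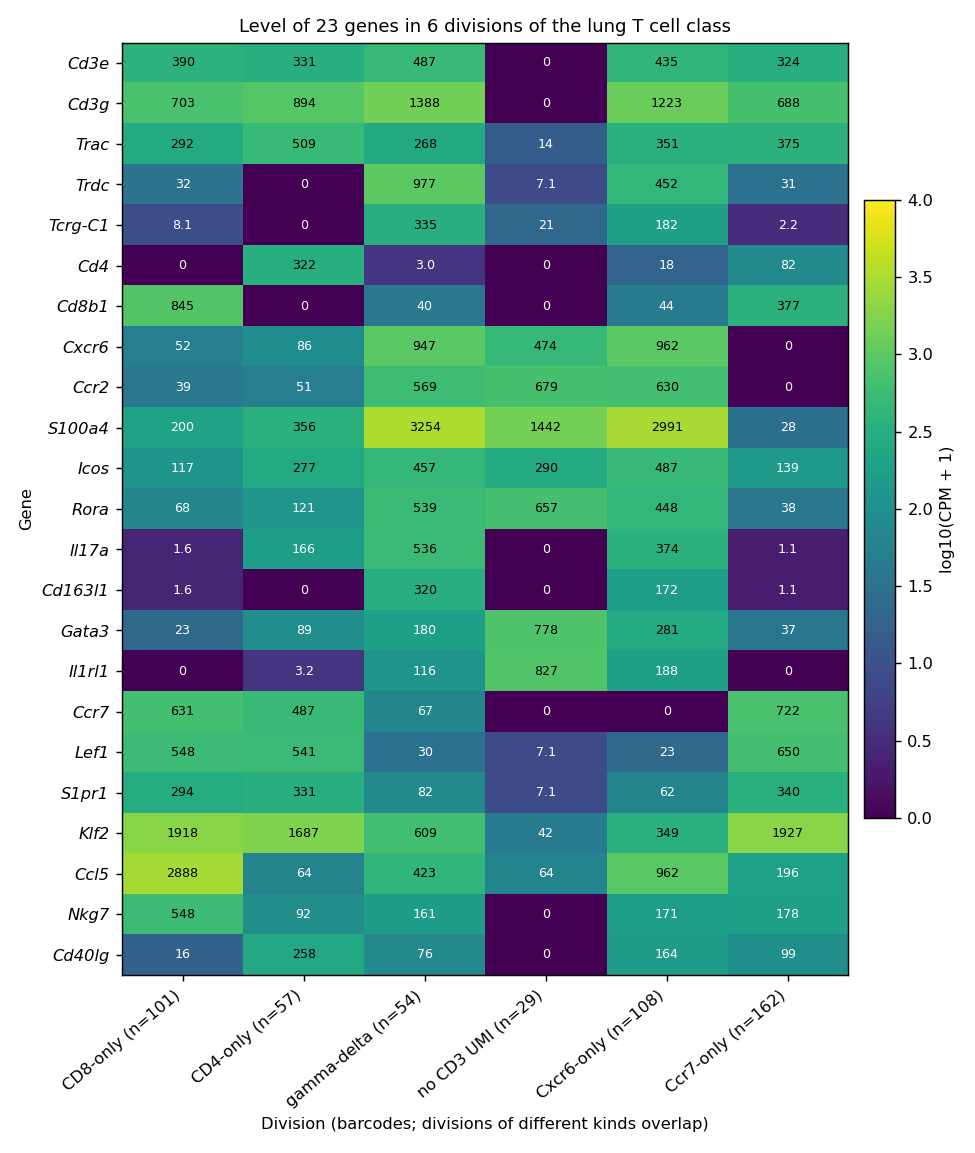
Level of 23 genes (rows) in 6 divisions of the T cell class (columns), in CPM printed in each cell and coloured as log10(CPM + 1). Divisions are by coreceptor, gamma-delta transcripts, absence of CD3 UMIs, and Cxcr6 or Ccr7, and a barcode can stand in several. The gamma-delta and Cxcr6-only columns share high S100a4, at 3254 and 2991 CPM, and Il1rl1 is highest without CD3, at 827.1 CPM.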

How the data were processed

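Libraries were prepared with the 10x Chromium v3 chemistry for 3' ends, per the labels' protocols. The submitters' processing notes list Cell Ranger 4.0.0 and mm10. Raw UMI counts were deposited by the authors, gene symbols by barcodes, and a class and quality flag for each barcode, whose making the labels do not describe. Of 8410 listed lung singlets, 6084 passed the flag, and the table holds 19647 genes. Members and gene lists were chosen with earlier results of these data known, and the divisions by gamma-delta transcripts, CD3 absence and Cxcr6 or Ccr7 after seeing values.

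UMIs were summed per class, divided by the class total (CPM) and set against each other as ratios. A gene was counted when either class reached 50 UMIs, or either division 30. Called means a ratio of at least 2 or at most 0.5. Intervals are exact at 95% (Poisson for sums, Clopper-Pearson for shares, conditional binomial for ratios), and a class with 0 UMIs was set to 3. Against the next class, this was done only where no other class had a UMI. Named genes are the 10 highest and 10 lowest ratios, and the 15 highest against the next class, where the higher level reached 50 CPM. Gm-numbered, Rik, mitochondrial, X- and Y-inactivation and variable-segment genes were left out, and list members may be named too. A few genes that the rule names are not reported here. Scrublet in scanpy 1.11.5 marked doublets, which were kept, and edgeR 4.0.16 gave the TMM factors. Ratios were tested on simulated class sums with counting error only, so that test does not cover variation between barcodes. Alternatives changed the scaling, UMI minimum, fold limit, coreceptor limit, depth and barcodes kept.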

Additional observations from a re-analysis of the deposited data

Results flagged for a closer look

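CD3 transcripts also appeared in lung multiplets, a library outside the comparisons above. At least 3 UMIs of Cd3e, Cd3d and Cd3g were counted in 393 of 4729 lung multiplet barcodes, or 8.31% (7.54 to 9.13), against 324 of 6084 lung singlets, or 5.33% (4.78 to 5.92). Per total UMIs the CD3 genes had 73.0 CPM in multiplets and 72.4 CPM in singlets. A multiplet barcode can hold RNA of several cells, and each kind had 1 library, so the difference was not tested.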

How the results depend on the processing

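No paired analysis was possible because each group had 1 library and all comparisons were made within it. Counting genes with at least 3 UMIs gave 1178 higher and 2031 lower in T than in NK cells, 1494 and 1908 in T than in B cells, 1049 and 968 in CD8-only than in CD4-only barcodes, and 220 highest in T cells, since it counts more genes. A 1.5-fold limit gave 651 and 930, 941 and 705, 240 and 248, and 122, since it is less strict. The genes lower in CD8-only barcodes were 31 without Scrublet doublets and 31 without barcodes with fibroblast UMIs. A coreceptor limit of 2 UMIs gave 124 genes higher in CD8-only barcodes and a CD4-only share of 8.68%, and thinning to 2000 UMIs a CD4-only share of 11.1%. At that coreceptor limit 49 genes were lower, and only 15 of them were among the 57 of the main setting. Of the 77 genes higher, 54 were kept. The cause of the shifts with doublets, fibroblast UMIs and the coreceptor limit was not tested. The other alternatives run moved these counts by at most 1.5 times. No called ratio of a named gene changed direction in the alternatives run. Named ratios left their counting interval in 0 of 75 cases under TMM scaling, 3 of 55 at 3000 UMIs, 3 of 135 with barcodes weighted equally, 4 of 20 with the coreceptor limit, 5 of 135 without doublets and 7 of 135 without fibroblast UMIs. Thinning lowered 17 of 21 shares below their interval. Depth limits genes of few UMIs per barcode, such as Cd4: a barcode with none may still express them.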

Other observations

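Transcripts of Foxp3 and Mki67 were sparse in the T cell class. Foxp3, the regulatory T cell factor, had 13 UMIs in 6 of 334 barcodes, and all 6 also had Ctla4, which was counted in 28 of the other 328. Mki67, a proliferation gene, had 18 UMIs in 6 barcodes. Type 2 cytokines were sparse, with 4 UMIs of Il13, all in barcodes without CD3, and 7 of Il5, of which 5 lay in barcodes without CD3. Ifng had 51 UMIs in T cells and 365 in NK cells. Ltb, which encodes lymphotoxin beta, was counted in 86.2% of T cells at 604.8 CPM, against 47.2 CPM in NK cells and 555.5 CPM in B cells.

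Of 8 GIMAP GTPases, lymphocyte survival genes, 3 were lower in T than in NK cells on total scaling, against 7.49% of all genes, and the others were within 2-fold. Heat shock genes summed to 4211 CPM in T cells and 6509 CPM in NK cells. Ifi27l2a, an interferon-induced gene, was 9.27 times higher in T than in NK cells (6.31 to 14.2). Pf4, a platelet gene, had 37 UMIs in T cells, of which 22 lay in 1 barcode.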
